A study of Gallus gallus with 6 samples.

Results

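The integrin and laminin genes of chicken cloacal skin were taken as every gene of the deposited tables whose NCBI chicken symbol reads ITGA, ITGB, LAMA, LAMB or LAMC followed by a number or letter, leaving out binding proteins and symbols with a hyphen. This rule found 32 of the 18315 genes, which were 12 integrin alpha chains, 7 integrin beta chains, the integrin beta-like gene ITGBL1, and 12 laminin chains (5 alpha, 4 beta and 3 gamma). The rule itself uses no measured value, but the family was chosen with earlier results of these data known. The skin came from 6 Ma-Huang chickens, a pure-line broiler with golden skin. The s_light group held 3 birds with low yellowness of the cloacal skin, and the s_deep group held 3 birds with high yellowness. All birds were slaughtered at one age after the same feeding, received no treatment, and differ from each other as individuals of 1 population. They also differ in sex as inferred below, and that difference is confounded with the groups. From each bird a single piece of cloacal skin, scraped free of subcutaneous fat, gave 1 poly(A) RNA-seq library.

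Integrins are cell surface receptors made of an alpha and a beta chain, and they tie the cytoskeleton to the matrix outside the cell. Laminins are secreted trimers of an alpha, a beta and a gamma chain and form the sheet of the basement membrane, to which epidermis, muscle fibres, vessels and nerves are fixed. In skin the ITGA6 and ITGB4 chains form the core of the hemidesmosome, the junction that holds basal keratinocytes on a laminin that holds the LAMA3 and LAMB3 chains. Roles given below are known mainly from mammals.

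Values are FPKM, fragments scaled to the length of the gene's exons and to the number of reads mapped in that library, and they summed to between 471488 and 487585 in the s_light libraries and between 472540 and 488777 in the s_deep libraries. The libraries are named by group and wing number, and values per library run in the order s_light6575, s_light6971, s_light8275 and s_deep6402, s_deep6403, s_deep7858. Genes of the W chromosome, which only hens carry, split the libraries in another way than the labels. Their mean log2(FPKM + 0.1), over 29 genes, was between 3.38 and 3.62 in the s_light libraries and 3.59 in s_deep7858, against -1.05 in s_deep6402 and -1.36 in s_deep6403. The labels give no sex, and the flock held hens and cocks. By these values s_deep6402 and s_deep6403 read as cocks and the other libraries as hens, so that sex, as inferred here, is confounded with the groups. The study's supplementary colour classes place the bird of s_deep6403 among the nearly white ones. Those classes rank overall skin colour in photographs, while the label rests on the yellowness of the cloacal skin. The paper reports a positive correlation of cloacal yellowness with that at other skin positions, so class and label of this bird stand apart. The reason was not tested. For some members results are also given without s_deep6402 and s_deep6403, which leaves s_deep7858 alone for s_deep. A fit with the mean of these W genes as a covariate (the W-chromosome score) comes close to that comparison. Those fits are therefore not separate checks, and both lean on a single bird. The tissue label fitted its markers: the basal keratin gene KRT5 was read at between 792 and 1133 FPKM in s_light and between 769 and 1369 FPKM in s_deep. Most smooth muscle, Schwann cell and adipocyte markers were higher in s_light, and their values stand beside the members below.

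The comparison of s_light with s_deep asked whether the adhesion receptors and laminins of the skin differ with its yellowness. Of the 31 members with a mean of at least 0.1 FPKM, none passed an adjusted p of 0.05 together with a difference of 2 times or more (limma on log2(FPKM + 0.1), Benjamini-Hochberg adjustment over 15900 genes), and 0.044% of all tested genes did. The lowest adjusted p of a member was 0.673. At an unadjusted p under 0.05, 1 member was higher in s_light (LAMA2) and 1 was lower (ITGA2), where 3.49% of all tested genes were higher and 2.96% lower. The groups did not overlap for 2 members that were higher in s_light (ITGB5 and ITGA2B) and for 1 that was lower (LAMA5). These are 6.45% and 3.23% of the members tested, beside 5.36% and 5.48% of all tested genes, so the shares lie near the background. The median log2 fold change was -0.04 over the members and -0.02 over all tested genes, with 13 members above and 18 below 0. It was -0.04 for the integrin alpha chains, 0.14 for the beta chains and -0.03 for the laminins. For 18 of the 31 members the 95% interval of the log2 fold change lay wholly between -1 and 1, which held for 66.3% of all tested genes. A difference of 2 times or more between the groups lies outside those intervals, while smaller ones can lie within them.

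**Figure D1:**
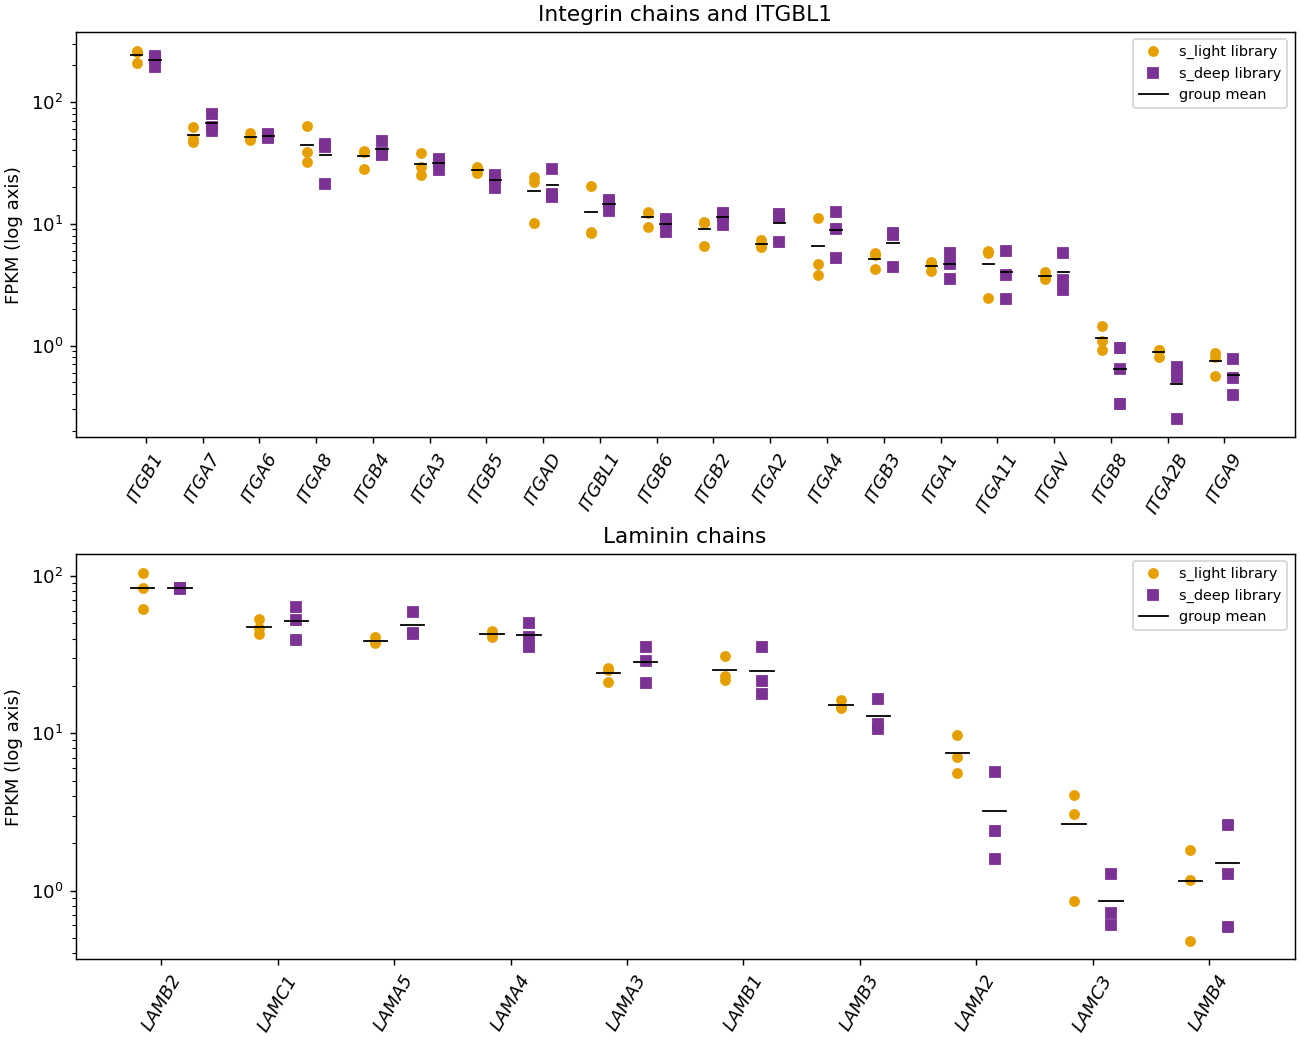
FPKM on a log axis of 20 integrin genes (top) and 10 laminin genes (bottom), each ordered by mean level; circles are the 3 s_light libraries, squares the 3 s_deep libraries and short lines the group means. ITGB1 stands above all other members, and LAMA2 and LAMC3 show the widest gap between group means; LAMA1, at no more than 0.03 FPKM, is not drawn.

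The beta chains were led by ITGB1, the partner of most alpha chains and thus the chain that collagen and laminin receptors share. ITGB1 was read at 209.91, 264.34 and 259.01 FPKM in s_light and at 193.95, 232.11 and 237.75 FPKM in s_deep. The groups overlapped, with means of 244 ± 30.0 FPKM in s_light and 221 ± 23.8 FPKM in s_deep (SD, n = 3 each) and a log2 fold change of 0.14 (95% interval -0.20 to 0.48). ITGB1 made up between 66.4% and 75.3% of the FPKM summed over the 7 beta chains and was between 4.05 and 9.02 times the next beta chain of its library. ITGB4, the hemidesmosome beta chain, was read at 38.99, 28.23 and 39.96 FPKM in s_light and at 47.86, 36.95 and 38.28 FPKM in s_deep. Its lowest library was s_light6971, and its log2 fold change was -0.21 (95% interval -0.62 to 0.20), or -0.046 without s_light6971 and -0.091 without s_deep6402.

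ITGB5 pairs with ITGAV to bind vitronectin. It was read at 28.34, 29.29 and 26 FPKM in s_light, against 25.15, 19.60 and 23.61 FPKM in s_deep. Every s_light library thus lay above every s_deep library, but by little, and s_deep6402 came within 1 FPKM of s_light8275. The log2 fold change was 0.30 (standard error, SE, of 0.13, adjusted p = 0.779, limma), and it was 0.19 without s_deep6403 and 0.24 with s_deep6402 and s_deep6403 left out. ITGAV itself, the shared alpha chain of the receptors for vitronectin and for latent TGF-beta, was read at between 3.55 and 4.0 FPKM in s_light and between 2.87 and 5.72 FPKM in s_deep. ITGB5 was therefore between 7.32 and 7.96 times ITGAV in s_light and between 4.13 and 8.76 times in s_deep, on the FPKM scale.

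The other ITGAV partners were lower in level. ITGB6, an epithelial chain that releases active TGF-beta, was read at between 9.45 and 12.57 FPKM in s_light and between 8.58 and 10.87 FPKM in s_deep. ITGB8, which also acts on latent TGF-beta, was read at 1.45, 0.91 and 1.09 FPKM in s_light and at 0.64, 0.33 and 0.96 FPKM in s_deep, values given in full because its log2 fold change of 0.82 (SE 0.40, adjusted p = 0.825, limma) was the largest of the beta chains. The groups overlapped through s_deep7858. The difference of ITGB8 was 0.19 on the log2 scale with the W-chromosome score as a covariate, 0.22 with s_deep6402 and s_deep6403 left out, and between 0.47 (without s_deep6403) and 1.13 (without s_deep7858) when single libraries were omitted. ITGB3, the beta chain of thrombocytes and vascular cells, was read at between 4.23 and 5.71 FPKM in s_light and between 4.41 and 8.45 FPKM in s_deep. ITGBL1, which resembles the beta chains but has no stretch that crosses the membrane, reached 20.44 FPKM in s_light6971. It was read at 8.33 and 8.53 FPKM in the other s_light libraries and at between 12.67 and 15.75 FPKM in s_deep, and its log2 fold change of -0.35 lay between -0.77 (without s_light6971) and -0.13 (without s_light6575) when single libraries were omitted.

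The collagen receptors found here were ITGA1, ITGA2 and ITGA11, and all of them were read at no more than 12 FPKM. ITGA2, the collagen receptor of keratinocytes and thrombocytes, was read at 6.55, 7.29 and 6.46 FPKM in s_light and at 11.28, 12 and 7.09 FPKM in s_deep. It was high in s_deep6402 and s_deep6403, while s_deep7858 lay inside the range of s_light. The log2 fold change of ITGA2 was -0.54 (SE 0.22, unadjusted p = 0.0444, adjusted p = 0.763, limma). It was -0.07 with the W-chromosome score as a covariate and -0.07 with s_deep6402 and s_deep6403 left out, where s_deep7858 stands alone for its group and is assumed to vary like the others. RefSeq places ITGA2 on the Z chromosome, of which cocks carry a pair and hens a single copy. Of the 634 Z genes tested, 352 (55.5%) were higher in s_deep6402 and s_deep6403 than in each of the other 4 libraries, and the median log2 fold change of the Z genes was -0.35. ITGA1, also on Z, did not have that order: it was read at 4.65, 4.81 and 4.08 FPKM in s_light and at 3.52, 5.72 and 4.69 FPKM in s_deep. ITGA11, a fibroblast collagen receptor, was read at between 2.45 and 5.96 FPKM in s_light and between 2.42 and 5.92 FPKM in s_deep.

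The laminin receptors ITGA7 and ITGA6 had the highest mean FPKM of the alpha chains. ITGA8, treated below, came next and was the highest alpha chain in s_light6971, and the laminin receptor ITGA3 followed. ITGA6, which pairs with ITGB4 in the hemidesmosome and with ITGB1 elsewhere, was read at 49.71, 49.18 and 55.81 FPKM in s_light and at 55.06, 50.43 and 53.05 FPKM in s_deep. It was the steadiest member, with 1.14 times between its highest and its lowest library and a log2 fold change of -0.04 (95% interval -0.28 to 0.20). ITGA3, the other laminin receptor of epidermis, was read at 37.81, 25.17 and 29.49 FPKM in s_light and at 34.24, 32.76 and 27.67 FPKM in s_deep, with the same mean within the spread (30.8 ± 6.42 and 31.6 ± 3.45 FPKM, SD, n = 3 each). ITGA7, the laminin receptor of muscle, was read at 49.53, 47.36 and 62.81 FPKM in s_light and at 57.63, 80.33 and 62.38 FPKM in s_deep. Its groups overlapped through s_light8275, and the log2 fold change was -0.32 (95% interval -0.72 to 0.07).

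ITGA8 is an alpha chain of smooth muscle and other mesenchymal cells and binds nephronectin and fibronectin. It was read at 32.36, 63.31 and 38.71 FPKM in s_light and at 43.07, 45.23 and 21.37 FPKM in s_deep, with the extremes in s_light6971 and s_deep7858 and a log2 fold change of 0.31 (95% interval -0.52 to 1.14). It was -0.04 without s_deep7858 and 0.51 without s_light6575, and with the W-chromosome score as a covariate it was 1.02 (SE 0.33, adjusted p = 0.711, limma). The smooth muscle markers leaned further to s_light than both muscle integrins. Their median log2 fold change was 1.11, a value that the 95% interval of ITGA8 includes. Of the 15 smooth muscle markers tested, 10 were higher in s_light at an unadjusted p under 0.05, where 3.49% of all tested genes were. None of them passed an adjusted p of 0.05, and the summed FPKM of the markers was between 6942 and 13430 in s_light and between 3674 and 6197 in s_deep. DES, a muscle intermediate filament gene, was read at 627.01, 400.69 and 1012.54 FPKM in s_light and at 50.41, 92.59 and 27.11 FPKM in s_deep. ACTA2, an actin gene of smooth muscle, lay on the other side of 0, at 720.01, 729.10 and 851.17 FPKM in s_light and at 648.88, 1214.25 and 1104.86 FPKM in s_deep (log2 fold change -0.32). DES had the largest log2 fold change of these markers (3.65), and that of ACTA2 equalled that of ITGA7 at 2 decimals. The part of smooth muscle in the ITGA7 and ITGA8 values was not tested. In pieces of whole skin, fewer cells of a type and less RNA per cell cannot be told apart.

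The receptors of blood and immune cells were low to moderate. ITGA2B, the alpha chain of thrombocytes, was read at 0.80, 0.92 and 0.92 FPKM in s_light and at 0.66, 0.55 and 0.25 FPKM in s_deep. The groups did not overlap, all values were under 1 FPKM, and the log2 fold change was 0.81 (SE 0.37, adjusted p = 0.793, limma). It was 1.48 with s_deep6402 and s_deep6403 left out, 0.48 without s_deep7858 and 0.35 with a pseudocount of 1. The other genes listed as thrombocyte markers did not follow that order: 5 of 8 were found, their summed FPKM was between 8.86 and 10.1 in s_light and between 7.94 and 10.2 in s_deep, and GFI1B was near 0. TUBB1 was the largest part of that sum, at between 5.19 and 5.54 FPKM in s_light and between 3.55 and 5.59 FPKM in s_deep. The groups overlapped for all 4 of these genes that were tested, and most of them were low. ITGB2, the leukocyte beta chain, was read at between 6.55 and 10.41 FPKM in s_light and between 9.73 and 12.25 FPKM in s_deep. ITGA4, which leukocytes use to bind VCAM1 and fibronectin, was read at 4.65, 11.24 and 3.80 FPKM in s_light and at 5.27, 8.99 and 12.52 FPKM in s_deep, and its log2 fold change of -0.52 lay between -0.98 (without s_light6971) and -0.21 (without s_light8275) when single libraries were omitted. ITGAD, a leukocyte alpha chain in mammals, was read at between 10.08 and 24.00 FPKM in s_light and between 16.55 and 28.26 FPKM in s_deep. Beside these, the summed FPKM of the 10 leukocyte markers found was between 2286 and 3113 in s_light and between 3207 and 4001 in s_deep. All 10 had a negative log2 fold change, 1 of them with an unadjusted p under 0.05. Most of the sum in every library came from CD74, at between 1713.48 and 2272.37 FPKM in s_light and between 2399.29 and 2755.03 FPKM in s_deep. Apart from CD74 and LCP1, every leukocyte marker overlapped between the groups. Among those was PTPRC, at 25.83, 25 and 14.18 FPKM in s_light and 19.14, 28.94 and 31.26 FPKM in s_deep. The part of cell numbers in these values was not tested. ITGA9, a receptor for tenascin-C, was read at between 0.56 and 0.86 FPKM in s_light and between 0.39 and 0.78 FPKM in s_deep.

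**Figure D2:**
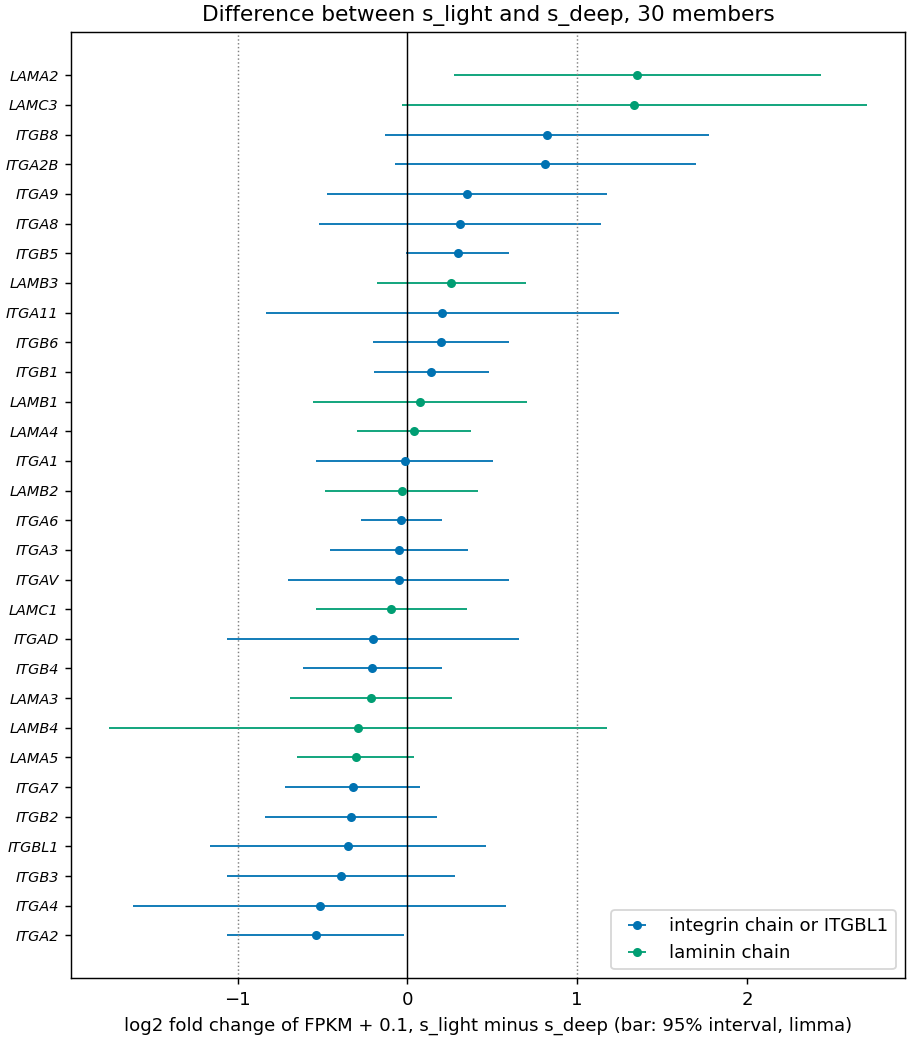
Log2 fold change of FPKM + 0.1, s_light minus s_deep, of 30 members, ordered by size; bars are 95% intervals from limma and dotted lines mark a difference of 2 times. The intervals of LAMA2 (0.27 to 2.44) and ITGA2 (-1.06 to -0.02) exclude 0 before adjustment for the number of genes tested.

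Among the laminin alpha chains LAMA2 had the largest difference, and with LAMC3 the largest of the members tested. LAMA2 is the alpha chain of the basal lamina around muscle fibres and Schwann cells. It was read at 7.08, 5.56 and 9.81 FPKM in s_light, against 5.66, 2.39 and 1.58 FPKM in s_deep. The highest s_deep library, s_deep6402, lay just above the lowest s_light library, so the groups overlapped. The log2 fold change was 1.35 (SE 0.46, unadjusted p = 0.0211, adjusted p = 0.673, limma), a fold of 2.56 with a 95% interval of 1.21 to 5.41. With each library left out in turn it stayed between 0.96 (without s_deep7858) and 1.85 (without s_deep6402). With the W-chromosome score as a covariate it was 2.06 (SE 0.55, adjusted p = 0.598, limma), and with s_deep6402 and s_deep6403 left out it was 2.14. In both fits the s_deep side rests largely or wholly on s_deep7858, so they are not separate checks.

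Most markers of Schwann cells and smooth muscle were also higher in s_light. All 9 Schwann cell and nerve markers tested had a positive log2 fold change, 5 at an unadjusted p under 0.05, where 3.49% of all tested genes were higher. None passed an adjusted p of 0.05, and their summed FPKM was between 134 and 156 in s_light and between 80.2 and 137 in s_deep. PMP22 was the largest part of that sum, at between 77.37 and 88.13 FPKM in s_light and between 48.57 and 109.99 FPKM in s_deep. It was highest in s_deep7858. Of the 9 markers, 6 were higher in s_light without overlap, while PMP22, NGFR and ERBB3 overlapped. MBP, a gene of the myelin sheath, was read at 17.04, 12.68 and 25.91 FPKM in s_light and at 7.41, 5.95 and 6.52 FPKM in s_deep. Both MBP and LAMA2 were highest in s_light8275 and next in s_light6575. The summed FPKM of the smooth muscle markers was also highest in s_light8275, while ACTA2, the actin gene of smooth muscle, was highest in s_deep6403. Most skeletal muscle markers were near the floor, and the myosin gene MYH1A averaged 0.0067 FPKM. The summed FPKM of the 12 genes was between 8.56 and 16.9 in s_light and between 4.87 and 11.4 in s_deep. Higher in level was TNNC1, at 12.26, 4.39 and 5.28 FPKM in s_light and 1.76, 4.74 and 2 FPKM in s_deep. Of the 8 tested, 5 had a positive and 3 a negative log2 fold change, with a median of 0.44. At an unadjusted p under 0.05, 2 were higher in s_light and none lower, beside 3.49% and 2.96% of all tested genes. The part of Schwann cells and of smooth or skeletal muscle in the LAMA2 values was not tested.

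**Figure D3:**
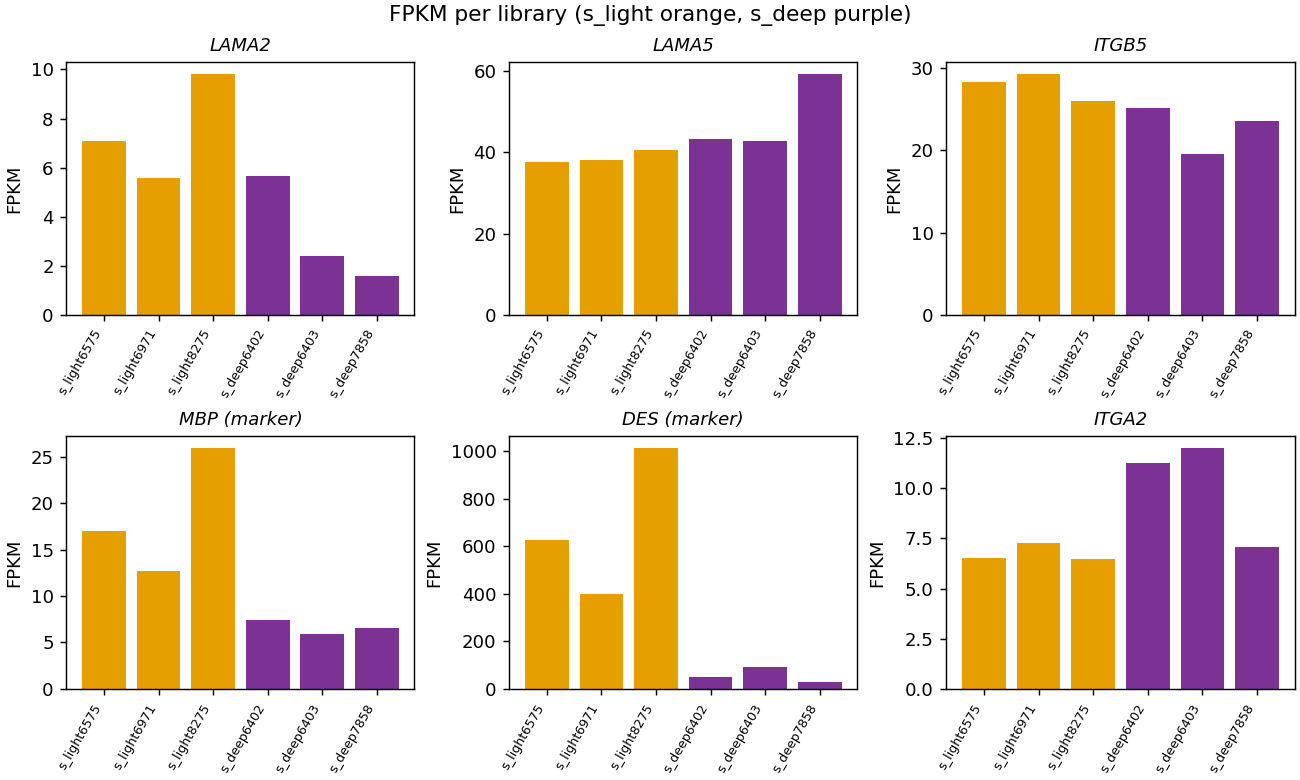
FPKM per library of LAMA2, LAMA5, ITGB5 and ITGA2 and of the markers MBP (Schwann cells) and DES (muscle), with the s_light libraries to the left of the s_deep libraries; each bar is 1 library. LAMA2, MBP and DES peak in s_light8275, LAMA5 in s_deep7858, and ITGA2 stands out in s_deep6402 and s_deep6403.

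LAMA5 and LAMA4 carried most of the laminin alpha signal. LAMA5, a chain of most adult basement membranes, was read at 37.73, 38.15 and 40.64 FPKM in s_light and at 43.35, 42.91 and 59.28 FPKM in s_deep. All s_light libraries lay below all s_deep libraries, and s_deep7858 stood far above the rest. The log2 fold change was -0.30 (SE 0.15, adjusted p = 0.814, limma), -0.15 without s_deep7858, and -0.61 with s_deep6402 and s_deep6403 left out. LAMA4, the alpha chain of vessel walls and other mesenchymal lamina, was read at 41.09, 44.56 and 43.00 FPKM in s_light and at 35.56, 40.61 and 50.19 FPKM in s_deep, with a log2 fold change of 0.04 (95% interval -0.30 to 0.37). The ratio of LAMA5 to LAMA4, chosen for its order after the values were seen, was between 0.856 and 0.945 in s_light and between 1.06 and 1.22 in s_deep. Endothelial markers had a median log2 fold change of -0.30, with 11 of 12 below 0 and summed FPKM of between 539 and 649 in s_light and between 617 and 803 in s_deep. Their part in the laminin values was not tested. LAMA1, a laminin of early embryos, was listed at 0.03 FPKM or less and was the only member not tested.

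LAMA3 and LAMB3, chains of the epidermal laminin, had log2 fold changes on opposite sides of 0. LAMA3 was read at 21.02, 26 and 25.06 FPKM in s_light and at 35.43, 28.96 and 20.91 FPKM in s_deep. Its highest libraries were s_deep6402 and s_deep6403, and s_deep7858 was its lowest, so that the log2 fold change of -0.22 (95% interval -0.69 to 0.26) was 0.19 with the first 2 left out. LAMB3 was read at 14.70, 14.38 and 16.29 FPKM in s_light and at 16.47, 10.66 and 11.38 FPKM in s_deep, a log2 fold change of 0.26 (95% interval -0.18 to 0.70). LAMA3 was read at a higher level than LAMB3 in every library, on the FPKM scale. The 10 basal keratinocyte markers found had a median log2 fold change of -0.06 and summed FPKM of between 1950 and 2968 in s_light and between 2407 and 2879 in s_deep.

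LAMB2, LAMB1 and LAMC1 are the beta and gamma chains of the more widespread laminins. LAMB2 was the most abundant laminin and was read at 104.96, 61.21 and 83.87 FPKM in s_light and at 83.56, 83.70 and 82.44 FPKM in s_deep. The group means were thus almost equal, at 83.3 ± 21.9 and 83.2 ± 0.691 FPKM (SD, n = 3 each), with the spread all on the side of s_light. LAMB1 was read at 21.94, 30.99 and 23.23 FPKM in s_light and at 21.60, 17.76 and 35.28 FPKM in s_deep. The ratio of LAMB2 to LAMB1 was lowest in s_light6971 (1.98) and in s_deep7858 (2.34), and it was between 3.61 and 4.78 in the other 4 libraries. LAMC1 was read at 46.67, 42.72 and 53.20 FPKM in s_light and at 52.09, 39.10 and 63.38 FPKM in s_deep, and it made up between 77.2% and 87.4% of the gamma chain FPKM.

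LAMC3, a rarer gamma chain, was read at 4.05, 3.07 and 0.86 FPKM in s_light and at 1.27, 0.72 and 0.60 FPKM in s_deep, values given in full because its difference was close in size to that of LAMA2. It was high in s_light6575 and s_light6971, while s_light8275 lay inside the range of s_deep. The log2 fold change of LAMC3 was 1.34 (SE 0.58, adjusted p = 0.779, limma), 0.92 without s_light6575 and 1.97 without s_light8275. With a pseudocount of 0.01 it was 1.42, beside 1.39 for LAMA2, so that which of these genes led depended on the pseudocount. LAMB4 was read at between 0.48 and 1.82 FPKM in s_light and between 0.59 and 2.63 FPKM in s_deep.

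**Figure D4:**
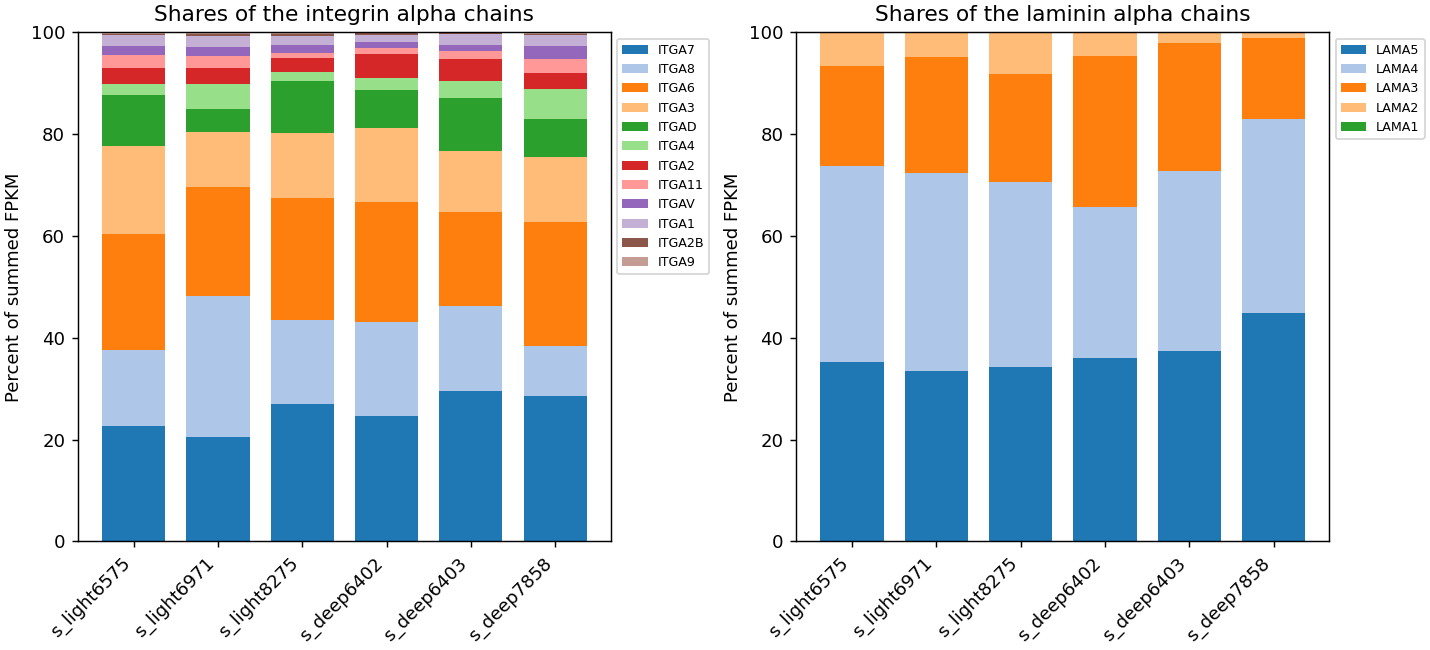
Share of each chain in the FPKM summed over the 12 integrin alpha chains (left) and the 5 laminin alpha chains (right), in percent, 1 bar per library with s_light to the left. ITGA7, ITGA6, ITGA8 and ITGA3 fill most of the integrin bars and LAMA5, LAMA4 and LAMA3 most of the laminin bars, and LAMA2 takes between 1.20% and 8.28%.

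Taken as shares of the FPKM summed over the 12 alpha chains, ITGA7 held between 20.6% and 29.5%, ITGA6 between 18.5% and 24.3%, ITGA8 between 9.80% and 27.5%, and ITGA3 between 10.9% and 17.3%. The alpha chains summed to between 218 and 233 FPKM in s_light and between 218 and 272 FPKM in s_deep. For the laminin alpha chains the share of LAMA5 was between 33.4% and 35.3% in s_light and between 36.1% and 44.9% in s_deep. LAMA4 held between 36.3% and 39.0% in s_light and between 29.6% and 38.0% in s_deep, and the share of LAMA2 was between 4.86% and 8.28% in s_light and between 1.20% and 4.72% in s_deep. As a share LAMA2 did not overlap between the groups, by a narrow margin (4.86% in s_light6971 beside 4.72% in s_deep6402), where its FPKM did. Shares of one sum are tied to each other.

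The members also differed among themselves in how far birds of a group lay apart. The median SD of log2(FPKM + 0.1) within the groups was 0.28 over the 28 members with a mean of at least 1 FPKM and 0.23 over the 13052 genes with such a mean. It was 0.35 over 32 collagen genes with such a mean, whose proteins share the basement membrane and dermis with the laminins. Within the groups ITGA6 had the smallest SD of a member (0.08) and LAMB4 the largest (0.94). Of these 28 members, 8 were highest in s_deep7858 and 7 were lowest in s_light6971, where 18.3% and 17.3% of the 13052 genes were. Among the members at their lowest in s_light6971 were LAMB2, ITGA3, ITGA6, ITGA7, ITGB4 and ITGAD. At their highest there were ITGA8, ITGBL1, ITGB1 and ITGB5. In the same library the summed FPKM of dermal fibroblast markers was the highest (7812, beside 5087 and 4981 in the other s_light libraries and between 4650 and 6930 in s_deep), and that of basal keratinocyte markers the lowest (1950). The part of tissue make-up in this library was not tested.

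Along the split of the W-chromosome genes, s_deep6402 and s_deep6403 both lay above the other 4 libraries for 2 of the 31 members (ITGA2 and LAMA3, 6.45%, beside 9.85% of all tested genes). They both lay below the others for 5 members (ITGB8, ITGA9, ITGAV, LAMA4 and LAMB1, 16.1%, beside 7.39% of all tested genes). LAMB1 had a log2 fold change of 0.07, and with the W-chromosome score as a covariate it was -0.47, so that its direction depends on how this split is treated. In s_deep6402 and s_deep6403 a part of yellowness and a part of the W-chromosome split cannot be told apart.

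**Figure D5:**
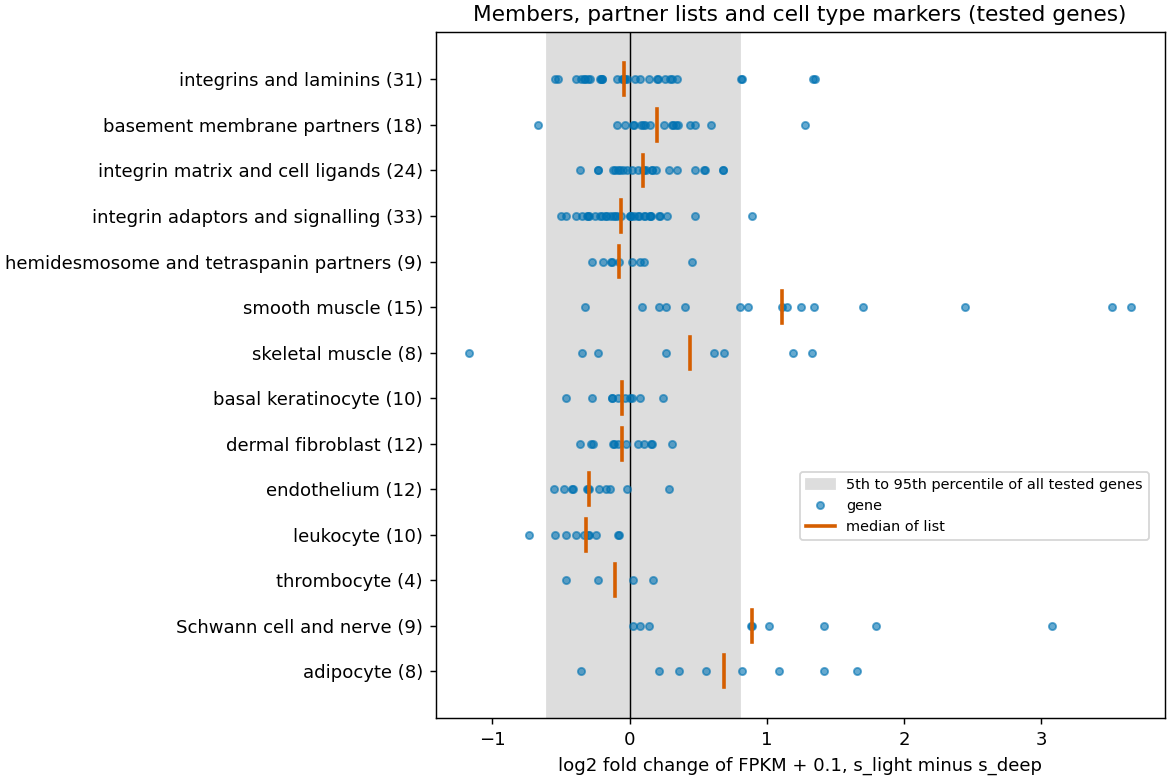
Log2 fold change of FPKM + 0.1, s_light minus s_deep, of the tested genes of each list (points, number in brackets) with the list's median (orange line); the grey band holds the middle 90% of all tested genes, from -0.60 to 0.81. The integrins and laminins and their adaptors sit around 0, while smooth muscle, Schwann cell and adipocyte markers lie to the right.

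The genes that work with integrins and laminins gave a similar picture, except for a lean to s_light among basement membrane genes. Of 21 basement membrane partners (among them type IV collagens, COL15A1, nidogens, perlecan and the dystroglycan complex), 18 were tested. At an unadjusted p under 0.05, 4 were higher in s_light and none was lower, beside 3.49% and 2.96% of all tested genes. The median log2 fold change was 0.20 beside -0.02 for all tested genes. The lowest adjusted p was 0.384 (limma), that of COL15A1, a collagen of the outer basement membrane. COL15A1 was read at 5.12, 5.22 and 4.74 FPKM in s_light and at 1.56, 1.61 and 3.22 FPKM in s_deep, without overlap, a log2 fold change of 1.28 (SE 0.30). The other 3, named after their values were seen, were COL4A2, a type IV collagen chain, with a log2 fold change of 0.44, and the sarcoglycans SGCE with 0.48 and SGCB with 0.31. Sarcoglycans belong to the dystroglycan complex, which binds laminin. The groups did not overlap for SGCE and SGCB. They overlapped for COL4A2, through s_deep7858 (57.59 FPKM, beside 55.97 FPKM in s_light6971). They also overlapped for DAG1 (log2 fold change 0.03), SGCA and SGCD of the dystroglycan complex. The part of muscle in these values was not tested. Of 27 matrix and cell ligands of integrins, 24 were tested and none had an unadjusted p under 0.05 in either direction (lowest adjusted p 0.779, limma), and the median was 0.10.

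Inside the cell, 33 of 38 adaptors and signalling proteins of integrins were tested, with a median log2 fold change of -0.06. Higher in s_light at an unadjusted p under 0.05 were 2 of them, FLNA and ACTN1, which crosslink actin, and 2 were lower, the focal adhesion kinase gene PTK2 and PARVG, an adaptor of leukocytes; all 4 are singled out here with their values known. The log2 fold change was 0.89 for FLNA, 0.48 for ACTN1, -0.39 for PTK2 and -0.46 for PARVG, and the lowest adjusted p was 0.489 (limma). The groups did not overlap for these 4 genes. At that unadjusted p, 3.49% of all tested genes were higher in s_light and 2.96% lower. Of 10 hemidesmosome and tetraspanin partners 9 were tested, none with an unadjusted p under 0.05, and their median was -0.08. The 37 collagen genes tested had a median of 0.11. Of them 5 were higher and 1 lower at an unadjusted p under 0.05, beside the same shares of all tested genes, and none passed both thresholds. The difference between the integrins and laminins and these lists was not tested.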

How the data were processed

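The authors cleaned and aligned the reads of each library and computed FPKM per gene, which were deposited with 2 decimals. The methods name TopHat, and the submitters' processing notes list HISAT2 2.0.4, Bowtie2 2.2.5, RSEM 1.1.12 and DESeq2 1.4.5 without a role. As no read counts were at hand, counting error could not be estimated. Symbols and chromosomes were matched by NCBI Gene ID to RefSeq (GRCg7b, 83.5% of IDs). That is not the authors' build, and no coordinates were taken. Integrin or laminin genes without a matched symbol are not among the members, so the family may be incomplete.

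Genes whose mean over the 6 libraries reached 0.1 FPKM entered a limma fit (version 3.58.1, R 4.3.3) with a trend of the variance on intensity. The response was log2(FPKM + 0.1), differences are s_light minus s_deep, and p-values were adjusted over all tested genes (Benjamini-Hochberg). This scale understates changes of low genes. The methods state more than one threshold. The one used here was an adjusted p of 0.05 with a difference of 2 times or more. A stricter adjusted p, also stated there, was not used here, but the paper's own differentially expressed genes were called at it. Among the enriched pathways of those genes the paper names focal adhesion and ECM-receptor interaction. Its test was not the limma fit used here, and its gene list was not compared with the members. P-values rest on the spread between 3 birds per group, each with 1 piece and 1 library. In limma that spread is drawn toward the variance trend over all tested genes. Within s_deep it also holds the W-chromosome split. Values in every library are given for members whose groups did not overlap, with an unadjusted p under 0.05 or a mean of at least 20 FPKM, and for the hemidesmosome and epidermal laminin chains; others are named after their values were seen. Of the partner lists, genes with an unadjusted p under 0.05 and a difference of 2 times or more were to be named. The W-chromosome score is the mean over W genes that averaged 1 FPKM or more. The members and lists were chosen with earlier results of these data known. Alternatives were other pseudocounts, filters, scalings and variance models, the W-chromosome score as a covariate, and leaving out each library; leaving out s_deep6402 and s_deep6403 together was added after seeing the data. Computations used Python 3.11.15 with numpy 2.4.6 and pandas 2.3.3. Counts, medians and sums cover all members and list genes, of which 1 member and 1 marker are not reported here.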

Additional observations from a re-analysis of the deposited data

How the results depend on the processing

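No member passed both thresholds under any of the 15 alternatives, and the lowest adjusted p of a member in any of them was 0.149 (ITGA2 without s_deep7858, limma). The 7 of all genes that passed became 11 with a pseudocount of 1, 12 with median-of-ratios scaling, 3 with the W-chromosome score as a covariate, 0 without s_deep6402 and s_deep6403 together, and between 0 and 69 with each library left out, 69 being without s_deep7858. Members higher in s_light at an unadjusted p under 0.05 numbered 2 with a pseudocount of 1, without a filter, with median-of-ratios scaling, with quantile normalization, without an intensity trend and without s_deep6402 and s_deep6403 together (between 3.31% and 3.86% of all genes), and 3 with the W-chromosome score (ITGA2B, ITGA8 and LAMA2, beside 3.60% of all genes). Their number was between 0 and 5 with each library left out: 0 without s_light6575 or s_deep6403 (2.78% and 2.87% of all genes), and 5 without s_deep6402 (ITGA2B, ITGB5, LAMA2, LAMB3 and LAMC3, where 3.10% of all genes were higher). Members lower in s_light numbered 0 without a filter and without an intensity trend (3.00% and 2.79% of all genes), and between 0 and 2 with each library left out: 0 without s_light6575 or s_deep6403 (2.19% and 1.62% of all genes), and 2 without s_light6971 (ITGA4 and ITGBL1, beside 3.27%) or s_deep7858 (ITGA2 and LAMA3, beside 4.53%). The cause was not tested. The median over the members stayed within -0.05 and 0.

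Of the 30 tested members given by name, 17 had the same direction in all alternatives, and 13, none with an absolute log2 fold change above 0.35, changed sign in at least 1. With the W-chromosome score the log2 fold change was -0.37 for ITGA11, 0.12 for ITGA3, -0.058 for ITGA9, 0.056 for ITGAD, 0.18 for LAMA3, -0.21 for LAMA4, -0.47 for LAMB1 and 0.69 for LAMB4. Without s_deep6402 and s_deep6403 together it was -0.42 for ITGA11, 0.13 for ITGA3, -0.086 for ITGA9, 0.078 for ITGAD, 0.19 for LAMA3, -0.23 for LAMA4, -0.49 for LAMB1 and 0.70 for LAMB4. With each library left out it lay between -0.20 and 0.14 for ITGA1, -0.11 and 0.61 for ITGA11, -0.21 and 0.087 for ITGA3, -0.039 and 0.51 for ITGA8, -0.43 and 0.19 for ITGAD, -0.26 and 0.23 for ITGAV, -0.075 and 0.17 for LAMA4, -0.14 and 0.36 for LAMB1, -0.22 and 0.17 for LAMB2, -0.78 and 0.21 for LAMB4, and -0.28 and 0.069 for LAMC1. Some members moved further when s_deep6402 and s_deep6403 were left out together than these single omissions show. The log2 fold change was then -0.62 for ITGAV, -0.42 for LAMC1, -1.09 for ITGA4 and -0.71 for ITGB3. With all libraries it was -0.05, -0.09, -0.52 and -0.39 for these genes. The differences of ITGA2 and ITGB8, given above, became smaller instead. No paired analysis was possible because no wing number occurs in both groups. With FPKM alone the depth behind a member is unknown, and values under 1 FPKM (ITGA2B, ITGA9, ITGB8 and LAMA1 on average) are the least certain.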

Other observations

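Chains of one receptor or trimer were not read at equal levels. The 10 alpha chains found here that can pair with ITGB1 summed to between 0.803 and 0.931 times ITGB1 in s_light and between 0.846 and 1.11 times in s_deep. Partners of ITGB1 that the symbol rule did not find are missing from this sum. ITGA6 was between 1.27 and 1.74 times ITGB4 in s_light and between 1.15 and 1.39 times in s_deep. ITGAD, which in mammals pairs with ITGB2, was above ITGB2 in 5 of the 6 libraries: ITGB2 was between 0.273 and 1.03 times ITGAD in s_light and between 0.418 and 0.740 times in s_deep. These ratios are on the FPKM scale and were looked at after the values were known.

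Adipocyte markers, which belong to no list of integrin or laminin partners, leaned to s_light. Of 8 tested, 7 had a positive log2 fold change, 4 of them with an unadjusted p under 0.05, where 3.49% of all tested genes were higher. None had an adjusted p under 0.05 (lowest 0.157, limma). ADIPOQ, the gene of the hormone adiponectin, was the exception, at 924.01, 581.25 and 886.34 FPKM in s_light and 814.17, 1038.69 and 1171.17 FPKM in s_deep. CIDEC, a lipid droplet gene, was read at 48.92, 35.53 and 36.11 FPKM in s_light and at 16.12, 8.29 and 14.70 FPKM in s_deep, and its log2 fold change was 1.66 (SE 0.27). Subcutaneous fat had been scraped off the pieces.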
